A study of Bos taurus with 6 samples.

Results

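The genes described here are the enzymes and regulators of glycolysis together with the genes that cells switch on when oxygen is short, in primary bovine aortic endothelial cells treated with TGF-beta 1. The list named 35 genes, 25 of glucose transport, glycolysis and the pyruvate branch point and 10 hypoxia-responsive regulators. A gene counted as measured where the array annotation gave its symbol to at least 1 probe set, and the probe set with the highest mean over the 6 arrays represented it. In this way 31 of the 35 were measured among 9162 genes in all, 23 glycolytic and 8 hypoxia-responsive. HK2, PDK1, CA9 and VHL were not analysed here. No filter on low values was applied, so all 31 entered the test.

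Cells were freed from bovine aorta with collagenase and grown in RPMI medium. Treated cultures received TGF-beta 1 at 5 ng/ml for 24 hours (arrays TGFB 1, TGFB 2 and TGFB 3), and untreated cultures were kept under basal conditions (arrays Basal 1, Basal 2 and Basal 3). Whether the 3 cultures of a group had different donor animals is not stated in the labels, so p-values measure the spread between arrays, which may be technical. No oxygen level is given in the labels, and hypoxia was not a condition of the study. Values are log2 expression from an Affymetrix bovine array, and a difference of 1 on that scale is a 2-fold change. The number of arrays limits the precision.

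Glucose enters endothelial cells through facilitative transporters, and glycolysis splits it into pyruvate, which lactate dehydrogenase turns into lactate or the mitochondria oxidise. Endothelial cells draw most of their ATP from this route even where oxygen is plentiful. When oxygen falls, the prolyl hydroxylases of the EGLN family no longer mark the alpha subunits of the hypoxia-inducible factors (HIF) for VHL-dependent breakdown. The stabilised factors then raise transcription of glucose transporters, nearly all glycolytic enzymes and genes such as BNIP3, NDRG1 and EGLN3.

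The arrays did not separate by treatment alone, which bears on every value below. On the first principal component, with 63.4% of the variance, TGFB 1 lay at -10.3 on the side of Basal 1 and Basal 2, and Basal 3 lay at 36.0 beside TGFB 2 and TGFB 3. The second component, with 24.7%, held the groups apart, with TGFB 1 to 3 at 48.0, 9.09 and 5.74 and Basal 1 to 3 at -10.9, -13.7 and -38.2. The first component is a property of the data and not a batch that the labels name. Among the control probe sets for the translation factor EF1A, the one at the middle of the transcript read 8.95, 10.32 and 10.06 on TGFB 1 to 3 and 8.04, 9.54 and 10.23 on Basal 1 to 3. The 3' minus 5' difference of the EF1A controls was -2.44, -2.09 and -2.01 on the TGFB arrays and -2.86, -2.51 and -1.87 on the Basal arrays. The control genes differed in this. The middle probe set of eIF-4E was also lower on TGFB 1, Basal 1 and Basal 2, at 8.76, 7.53 and 8.29. It read 9.41, 9.47 and 9.20 on TGFB 2, TGFB 3 and Basal 3. For GAPDH the 3' minus 5' difference did not follow the sides of the first component. It was 0.43, 0.26 and 0.35 on the TGFB arrays and 0.49, 0.28 and 0.38 on the Basal arrays. The part of these differences between arrays in the results was not tested. Results are therefore given also with the sides of the first component as a block, and within each side, where TGFB 1 is set against Basal 1 and Basal 2, and TGFB 2 and TGFB 3 against Basal 3. These fits were chosen with the data known.

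Markers were compared as the mean log2 level of a list per array. Of 12 measured endothelial markers CLDN5 fell and none rose, and the list mean ran from 9.29 to 9.54 on the TGFB arrays and 9.27 to 9.92 on the Basal arrays. Unadjusted p was under 0.05 for 7 of the 12 by limma, and the groups did not overlap in 9, with the TGFB arrays lower in 6 and higher in 3. Over all genes 17.4% had such a p, and the groups did not overlap in 23.3%, lower in 15.1% and higher in 8.19%. The junction protein genes PECAM1 and CDH5, which define the cell type, averaged 11.77 and 11.53 on the TGFB arrays and 12.29 and 12.10 on the Basal arrays, and neither passed (limma adjusted p = 0.112 and 0.204). EMCN, ENG and ROBO4, also endothelial surface proteins, had estimates of 0.82, 0.99 and 0.75, the 3 with the TGFB arrays higher. None of them passed either, with limma adjusted p = 0.112, 0.253 and 0.338. With the sides of the first component as a block, these 3 passed as higher, at 0.92, 1.29 and 1.04. Their limma adjusted p there was 0.0242, 0.0117 and 0.0085. PECAM1 and CLDN5 passed as lower in that fit, at -0.45 and -2.94 (limma adjusted p = 0.0439 and 0.00879), and CDH5 did not (0.0557). Over all genes that fit called 4.01% as higher and 5.58% as lower. VWF averaged 6.01 on the TGFB arrays and 6.19 on the Basal arrays, close to the array medians of 5.88 to 5.92, and KDR averaged 4.47 on the TGFB arrays and 5.14 on the Basal arrays, below them. Of 8 smooth muscle markers TAGLN rose, and the list mean was 7.15 to 7.33 on the TGFB arrays and 6.76 to 6.89 on the Basal arrays. The list median of the estimates was 0.10, with TAGLN at 2.19 and CALD1 at 1.04 (limma adjusted p = 0.191 for CALD1). The groups overlapped in the other 6, ACTA2, MYH11, CNN1, SMTN, DES and LMOD1, with estimates from -0.26 to 0.20. None of 8 fibroblast, 7 leukocyte and 5 erythroid markers passed the limma threshold, and 2, 0 and 1 of them had an unadjusted p under 0.05. Their list means were 6.36 to 6.62, 4.79 to 4.88 and 4.57 to 4.92 on the TGFB arrays, and 6.27 to 6.42, 4.72 to 4.89 and 4.40 to 4.59 on the Basal arrays. The erythroid marker with an unadjusted p under 0.05 was EPB42, at 1.17 with the TGFB arrays higher (limma adjusted p = 0.115). COL1A2, 1 of the 2 such fibroblast markers, averaged 11.85 on the TGFB arrays and 10.91 on the Basal arrays. Its groups overlapped (limma adjusted p = 0.221). In the same blocked fit EPB42 and COL1A2 passed as higher, at 1.375 and 0.66 (limma adjusted p = 0.0121 and 0.0249). No other marker of these 3 lists passed in it. In RNA from whole cultures, fewer cells of a type and less RNA per cell cannot be told apart. RMA values have no true zero, and the part of other cell types in the results was not tested.

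The comparison of treated with untreated cultures asked how TGF-beta 1 changes gene expression in these cells. Among the 31 measured genes, DDIT4 and SLC2A1 rose after TGF-beta 1 and none fell (limma adjusted p under 0.05 over all 9162 genes). The stress-response gene DDIT4 rose 2.67-fold and the glucose transporter SLC2A1 2.07-fold. Over all genes 1.72% were called, 0.557% as higher and 1.17% as lower. Unadjusted p was under 0.05 for 8 members, all of them higher after treatment, where 17.4% of all genes met this in either direction and 5.99% as higher. In size, 5 of the 31 estimates were over 0.5 log2: DDIT4, EGLN3, SLC2A1, LDHA and PFKP. Over all genes 1837 of 9162 were over that size. The median log2 fold change was 0.07 for the 23 glycolytic genes and 0.19 for the 8 hypoxia-responsive genes, against -0.03 for all 9162 genes. Of the 31, 20 lay above zero and 11 below, and 44.4% of all genes lay above zero.

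**Figure D1:**
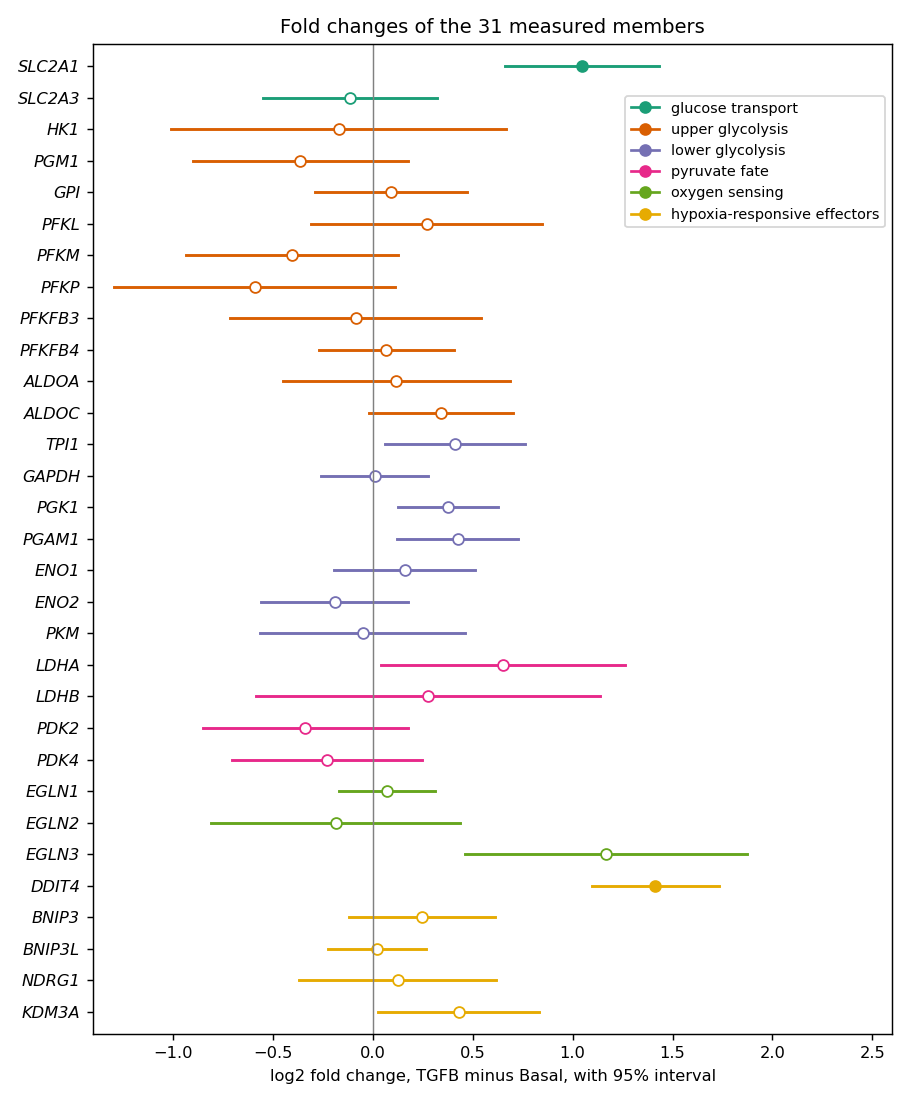
Fold changes of the 31 measured genes (x axis, log2, TGFB minus Basal, 3 arrays each) with 95% intervals of the limma fit, 1 gene per row, coloured by role. Filled points passed the adjusted threshold: SLC2A1 at 1.05 and DDIT4 at 1.41 stand to the right, and most other intervals cross zero.

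The groups did not overlap in 10 of the 31 genes, 9 with the TGFB arrays higher and 1 with them lower. Over all genes the groups did not overlap in 23.3%, higher in 8.19% and lower in 15.1%. With 3 arrays against 3 an exact permutation test of a single gene cannot give a two-sided p below 0.1.

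The facilitative glucose transporters SLC2A1 and SLC2A3 were both measured, and SLC2A1 rose. SLC2A1 (GLUT1, Entrez gene 282356), the widespread basal transporter, read 9.43, 8.94 and 8.98 log2 on TGFB 1 to 3 and 8.04, 8.04 and 8.14 on Basal 1 to 3. Every TGFB array stood above every Basal array, with TGFB 1 the highest. The mean was 9.12 ± 0.27 after treatment and 8.07 ± 0.06 without it (SD, n = 3 each). The change was 1.05 log2 (SE 0.16). As a fold this is 2.07 (95% interval 1.58 to 2.70, limma adjusted p = 0.0441). SLC2A1 did not pass when any 1 array other than Basal 3 was left out (limma adjusted p = 0.0723 to 0.209), nor with limma-trend (0.0627), single probe sets (0.0579) or the replicate block (0.0909). The difference was 1.40 within the array set of TGFB 1 and 0.82 within that of TGFB 2 and 3. SLC2A3 (GLUT3), a high-affinity transporter best known from neurons, stood at 6.07, 6.05 and 6.08 on the TGFB arrays and 5.897, 6.54 and 6.09 on the Basal arrays. Its groups overlapped and its change was -0.11 (95% interval -0.55 to 0.32), and the median of all probe sets of an array was 5.88 to 5.92.

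The upper part of glycolysis spends ATP to phosphorylate and split glucose. None of its 10 measured genes passed, and none had an unadjusted p under 0.05 by limma. Hexokinase HK1, which traps glucose in the cell, read 10.57, 9.87 and 9.83 on TGFB 1 to 3 and 10.61, 10.59 and 9.59 on Basal 1 to 3. Its high arrays were TGFB 1, Basal 1 and Basal 2, and its change was -0.17 (SE 0.35, limma adjusted p = 0.849). The isomerase GPI, at 11.20 ± 0.03 after treatment and 11.11 ± 0.27 without it, differed by 0.09 (SE 0.16). PGM1, which links glucose 6-phosphate to glycogen, averaged 8.43 ± 0.04 on the TGFB arrays and 8.79 ± 0.43 on the Basal arrays, a difference of -0.36 (SE 0.22, limma adjusted p = 0.469).

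The 3 subunit genes of phosphofructokinase, the committing enzyme of the pathway, had estimates on both sides of zero. PFKP, the platelet-type subunit, read 8.61, 8.29 and 8.24 on the TGFB arrays and 9.41, 9.16 and 8.35 on the Basal arrays. The groups overlapped because Basal 3 lay with the treated arrays, and the change was -0.59 (SE 0.29, limma adjusted p = 0.367). PFKP passed at -0.90 without Basal 3 (limma adjusted p = 0.024), a fit in which both remaining untreated arrays lie on the side of TGFB 1, and was -0.38 in the blocked fit (0.207). PFKM, the muscle-type subunit, was the 1 gene of the list with every TGFB array below every Basal array. It read 5.78, 6.51 and 6.43 on the TGFB arrays and 6.81, 6.60 and 6.53 on the Basal arrays, a change of -0.40 (SE 0.22, limma adjusted p = 0.417) that TGFB 1 led, since the estimate was -0.17 without that array. The other PFKM probe sets stood at -0.22 and -0.20, also with every TGFB array lower (limma unadjusted p = 0.061 and 0.13). The one at -0.22 had within-set differences of -0.18 and -0.19. PFKL, the liver-type subunit, stood at 0.27 (SE 0.24). PFKFB3 and PFKFB4 make fructose 2,6-bisphosphate, the activator of phosphofructokinase, and PFKFB3 is the form best studied in sprouting endothelium. PFKFB3 averaged 7.98 ± 0.14 after treatment and 8.07 ± 0.50 without it, and its within-set differences had opposite signs, -0.51 and 0.55. PFKFB4 differed by 0.07 (95% interval -0.27 to 0.41).

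Aldolase cleaves the 6-carbon sugar. ALDOC, its brain-type form, read 7.98, 7.94 and 7.84 on the TGFB arrays and 7.76, 7.67 and 7.31 on the Basal arrays. The groups did not overlap, but the change of 0.34 (SE 0.15) did not pass (limma adjusted p = 0.312). ALDOA, the ubiquitous form, averaged 12.18 ± 0.25 on the TGFB arrays and 12.06 ± 0.39 on the Basal arrays, and its estimate of 0.12 (SE 0.23) stood at -0.11 without Basal 3.

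The lower part of glycolysis recovers ATP, and 3 of its 7 genes had separate groups with higher TGFB arrays: TPI1, PGK1 and PGAM1. Separate groups in this direction were found in 8.19% of all genes. None of the 7 passed the threshold over all genes. The triose isomerase TPI1 read 12.08, 11.95 and 11.85 on TGFB 1 to 3 and 11.65, 11.68 and 11.30 on Basal 1 to 3, a difference of 0.41 (SE 0.14, limma adjusted p = 0.216). PGK1, the first ATP-yielding kinase, read 12.77, 12.56 and 12.60 on the TGFB arrays and 12.26, 12.26 and 12.28 on the Basal arrays. Its untreated arrays were nearly identical, and the difference was 0.38 (SE 0.10, limma adjusted p = 0.135). The mutase PGAM1 read 11.48, 11.41 and 11.23 on the TGFB arrays and 11.01, 11.04 and 10.80 on the Basal arrays, a difference of 0.43 (SE 0.12, limma adjusted p = 0.154). These shifts were each about 1.3-fold, at 1.33, 1.30 and 1.34. They had the same sign within both array sets, 0.41 and 0.59 for TPI1, 0.51 and 0.30 for PGK1 and 0.46 and 0.52 for PGAM1. In the fit blocked on array set, TPI1 and PGAM1 passed (limma adjusted p = 0.031 and 0.0341) and PGK1 did not (0.0557). That fit called 9.58% of all genes, 4.01% as higher and 5.58% as lower.

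The other enzymes of the lower part gave smaller estimates. The enolase ENO1 stood at 0.16 (SE 0.14) and its neuronal form ENO2, at 5.38 after treatment and 5.57 without it below the array medians, at -0.19 (SE 0.15). Pyruvate kinase PKM, the last step, averaged 10.78 ± 0.19 on the TGFB arrays and 10.83 ± 0.36 on the Basal arrays and differed by -0.05 (95% interval -0.56 to 0.46). GAPDH, often used as a loading reference, read 12.86, 12.88 and 12.83 on the TGFB arrays and 12.93, 12.92 and 12.69 on the Basal arrays. Its difference of 0.01 (95% interval -0.26 to 0.28) changed sign under quantile normalization and median centring, to -0.03 and -0.0025. The control probe set at the 3' end of GAPDH, kept out of the test, read 13.30, 13.26 and 13.29 on the TGFB arrays and 13.31, 13.33 and 13.21 on the Basal arrays.

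**Figure D2:**
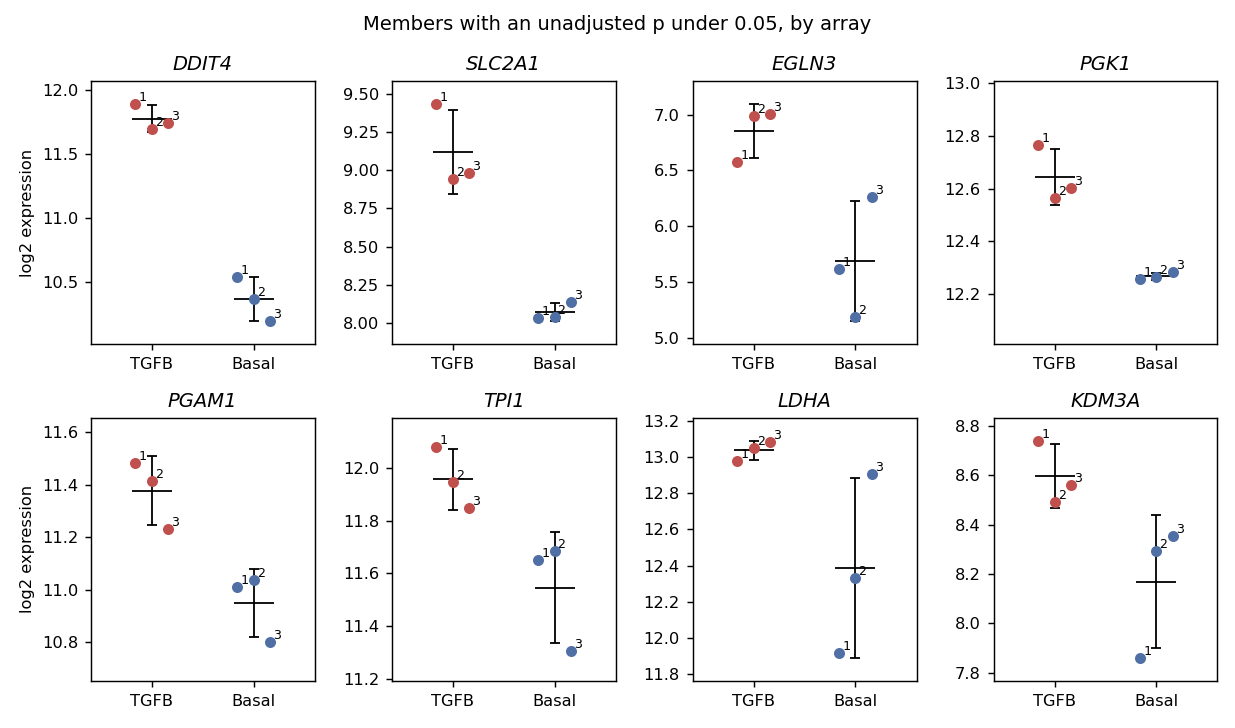
Log2 expression (y axis, scaled per gene) of the 8 genes with an unadjusted p under 0.05, in TGFB and Basal arrays. Points are arrays with their replicate number and bars are mean and SD (n = 3 each). Every TGFB point lies above every Basal point in all 8. Basal 3 is the Basal point nearest to the TGFB points in SLC2A1, EGLN3, PGK1, LDHA and KDM3A.

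At the pyruvate branch, lactate dehydrogenase LDHA, which favours lactate, read 12.98, 13.05 and 13.08 on TGFB 1 to 3 and 11.92, 12.33 and 12.91 on Basal 1 to 3. The TGFB arrays agreed closely and Basal 3 lay just under them. The difference was 0.65 (SE 0.25, limma adjusted p = 0.255), and it was 0.85 in the array set of TGFB 1 and 0.16 in that of TGFB 2 and 3. Without Basal 3 LDHA passed at 0.91 (limma adjusted p = 0.0206). The 3 probe sets of LDHA disagreed. The one with the middle mean stood at 0.58 with overlapping groups. The third read 8.25, 8.71 and 8.72 on the TGFB arrays and 9.13, 9.23 and 9.17 on the Basal arrays, a difference of -0.62 with separate groups in the other direction (limma unadjusted p = 0.0059). The direction for LDHA differed between probe sets. LDHB, the heart-type subunit, which favours pyruvate, read 11.73, 12.42 and 12.38 on the TGFB arrays and 11.24, 11.997 and 12.47 on the Basal arrays, a difference of 0.28 (SE 0.35) with overlapping groups. The pyruvate dehydrogenase kinases PDK2 and PDK4, which hold pyruvate back from the mitochondria, stood at -0.34 (SE 0.21) and -0.23 (SE 0.20). PDK4 averaged 4.37 on the TGFB arrays and 4.60 on the Basal arrays, near the 25th percentile of each array (4.52 to 4.60), and a level above background cannot be stated for it.

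Among the oxygen sensors, EGLN3 (PHD3), itself induced by HIF, had the second largest estimate of the list. It read 6.58, 6.99 and 7.003 log2 on TGFB 1 to 3 and 5.62, 5.19 and 6.26 on Basal 1 to 3. The groups did not overlap, and Basal 3 was the untreated array nearest to the treated ones. The difference was 1.17 (SE 0.29), a ratio of 2.24 (1.38 to 3.66), and did not pass over all genes (limma adjusted p = 0.113). It was 1.18 within the array set of TGFB 1 and 0.73 within that of TGFB 2 and 3. EGLN3 passed at 0.95 in the blocked fit (limma adjusted p = 0.0208) and at 1.45 without Basal 3 (0.0148). EGLN1 (PHD2), the main oxygen sensor, lay between 10.90 and 11.01 on the TGFB arrays and between 10.81 and 10.94 on the Basal arrays, a difference of 0.07 (95% interval -0.17 to 0.31). Its other 2 probe sets gave 0.14 and 0.09. EGLN2 (PHD1) stood at -0.19 (SE 0.26), and at 0.0175 in the blocked fit.

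DDIT4 (REDD1, Entrez gene 529235), an inhibitor of mTORC1 signalling that hypoxia, glucocorticoids and other stresses induce, had the largest estimate of the list. It read 11.89, 11.70 and 11.75 log2 on TGFB 1 to 3 and 10.54, 10.37 and 10.19 on Basal 1 to 3. The 3 TGFB arrays all stood clear of the 3 Basal arrays. The mean was 11.78 ± 0.10 after treatment and 10.36 ± 0.17 without it (SD, n = 3 each). The change was 1.41 log2 (SE 0.13). As a fold this is 2.67 (95% interval 2.14 to 3.32, limma adjusted p = 0.0226). The difference was alike in both array sets, 1.44 and 1.53. When 1 array other than Basal 3 was left out, the estimate stayed between 1.36 and 1.502, while the limma adjusted p ran from 0.0653 to 0.169.

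The remaining hypoxia-responsive genes did not pass. KDM3A, a histone H3K9 demethylase induced by HIF, read 8.74, 8.49 and 8.56 on the TGFB arrays and 7.86, 8.29 and 8.35 on the Basal arrays. Its groups did not overlap, and the difference was 0.43 (SE 0.17, limma adjusted p = 0.258). The other KDM3A probe set stood at 0.36 with overlapping groups. BNIP3, a receptor for mitophagy, stood at 0.25 (SE 0.15) with overlapping groups, and its other 2 probe sets stood at 0.28 and 0.23 with separate groups. Its relative BNIP3L (NIX) differed by 0.02 (95% interval -0.22 to 0.27). NDRG1, a stress-induced gene tied to growth arrest, differed by 0.12 (SE 0.20) and stood at -0.04 without TGFB 1.

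Of the 31 genes 8 had more than 1 probe set, with 14 besides the representative ones. Of these 12 had the sign of the representative probe set and 2 the opposite, 1 of LDHA as described and 1 of PDK4 at 0.11.

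The untreated arrays differed among themselves. Basal 3 was the lowest of the 6 arrays in 12 of the 23 glycolytic genes and 4 of the 8 hypoxia-responsive genes, where 23.2% of all genes had it lowest. It lay below the mean of Basal 1 and Basal 2 in 9 of the 10 genes of upper glycolysis, by a median of -0.69, against a median of -0.10 over all genes. The gap was -1.01 for HK1, -0.93 for PFKP, -0.84 for PFKFB3 and -0.74 for PGM1. LDHA and LDHB lay the other way, higher on Basal 3 by 0.78 and 0.85. For these 6 genes the gap between untreated arrays was larger than the difference between the groups.

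**Figure D3:**
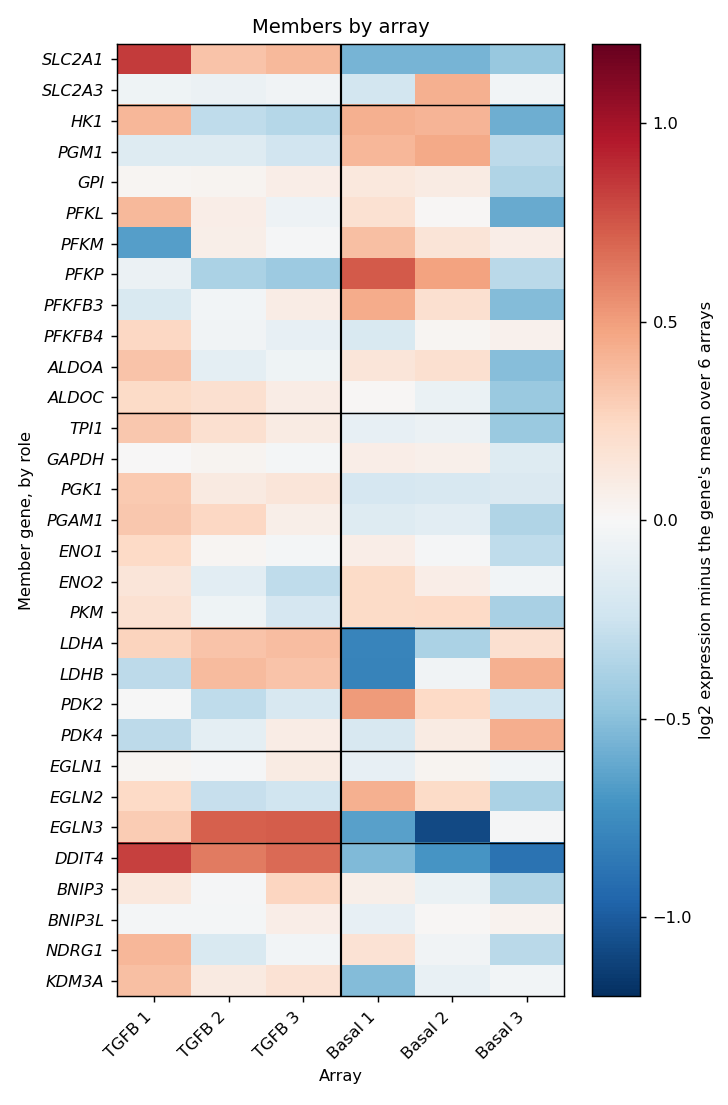
Log2 expression minus the gene's mean over the 6 arrays (colour) for the 31 genes (rows, grouped by role) on TGFB 1 to 3 and Basal 1 to 3 (columns). SLC2A1, EGLN3 and DDIT4 are high on all 3 TGFB arrays, while HK1, PFKL, PFKFB3, ALDOA and PKM are lowest on Basal 3.

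Within the array set of TGFB 1 18 of the 31 differences were positive, and within that of TGFB 2 and 3 22 were. Both were positive for 15 genes and both negative for 6, against 29.2% and 35.2% of all genes. The largest differences in both sets were those of DDIT4, SLC2A1 and EGLN3. Each such difference rests on 3 arrays and has no test of its own.

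**Figure D4:**
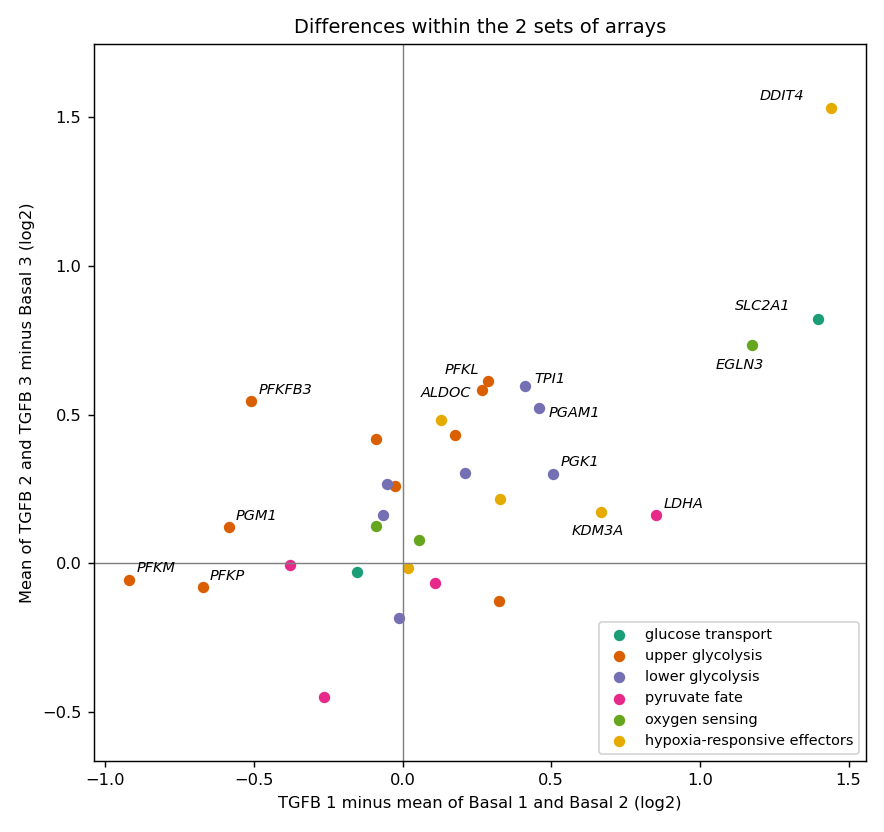
Differences of the 31 genes within the array set of TGFB 1, Basal 1 and Basal 2 (x axis, log2) and within that of TGFB 2, TGFB 3 and Basal 3 (y axis, log2), coloured by role. DDIT4 at 1.44 and 1.53, SLC2A1 at 1.40 and 0.82 and EGLN3 at 1.18 and 0.73 lie apart at the upper right, and PFKM lies at the far left at -0.92 and -0.05.

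The calls depended on single arrays. None of the 31 genes was called by limma when any array other than Basal 3 was left out, fits that called 0.0327% of all genes without TGFB 1, 0.0873% without TGFB 3, 0.0109% without Basal 1 and 0 genes without TGFB 2 or Basal 2. These fits gave 1010 to 1359 genes, and 5 to 7 of the 31, an unadjusted p under 0.05. Without Basal 3 6 of the 31 passed, SLC2A1, LDHA, EGLN3 and DDIT4 higher and PGM1 and PFKP lower, in a fit that called 16.8% of all genes. In the blocked fit, which called 9.58% of all genes and 4.01% as higher, 5 passed, all higher: SLC2A1, TPI1, PGAM1, EGLN3 and DDIT4.

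Beside these genes, 5 further lists of related genes were read from the same fit. Of 9 measured HIF subunits and regulators 1 fell and none rose, with a list median of 0.06. EPAS1 (HIF-2 alpha), the endothelial HIF subunit, read 7.03, 7.36 and 7.89 on the TGFB arrays and 10.90, 10.47 and 10.35 on the Basal arrays, a fall of 8.86-fold (limma adjusted p = 0.0188). HIF1A (HIF-1 alpha), the subunit that chiefly drives glycolytic genes, read 11.82, 11.90 and 12.03 on the TGFB arrays and 10.55, 10.82 and 11.58 on the Basal arrays. The groups of HIF1A did not overlap, and its difference of 0.93 (SE 0.27) did not pass (limma adjusted p = 0.149). It was 1.14 in the array set of TGFB 1 and 0.39 in that of TGFB 2 and 3. CITED2, which competes with HIF for its coactivator, had an estimate of 0.99 (SE 0.18), short of the threshold with limma adjusted p = 0.0617. CITED2 passed in the blocked fit (1.02, limma adjusted p = 0.0224) and without Basal 3 (0.022), and HIF1A passed without Basal 3 (1.23, 0.00859) but not in the blocked fit (0.0559). SIAH2, a ligase that degrades EGLN proteins, had one of -0.22 (SE 0.13).

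Of 37 other measured hypoxia-responsive genes 3 rose and 1 fell, with a list median of 0.02. Unadjusted p by limma was under 0.05 for 13 of them, against 17.4% of all genes. The groups did not overlap in 8 with the TGFB arrays higher and 8 with them lower, against 8.19% and 15.1% of all genes. The blocked fit called 8 of the 37 as higher and 4 as lower, and 4.01% and 5.58% of all genes. VEGFA, the angiogenic growth factor, read 9.90, 8.59 and 8.71 on the TGFB arrays and 6.04, 6.23 and 6.17 on the Basal arrays, a rise of 2.92 log2 (SE 0.35, limma adjusted p = 0.0296). ANGPTL4, a secreted inhibitor of lipoprotein lipase, rose by 2.51 (SE 0.41, limma adjusted p = 0.0484) and the chemokine CXCL12 by 3.11 (SE 0.28, limma adjusted p = 0.0226). IGFBP3, a binding protein of insulin-like growth factors that is also a known hypoxia-responsive gene, went the other way. It read 8.68, 8.75 and 9.01 on the TGFB arrays and 10.10, 9.83 and 9.69 on the Basal arrays, and fell by 1.06 log2 (SE 0.16, limma adjusted p = 0.0425). GALM, CXCL12, IGFBP3 and ANGPTL4 did not pass when any 1 array other than Basal 3 was left out. Among those fits EPAS1 passed only without TGFB 3 and VEGFA only without TGFB 1.

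**Figure D5:**
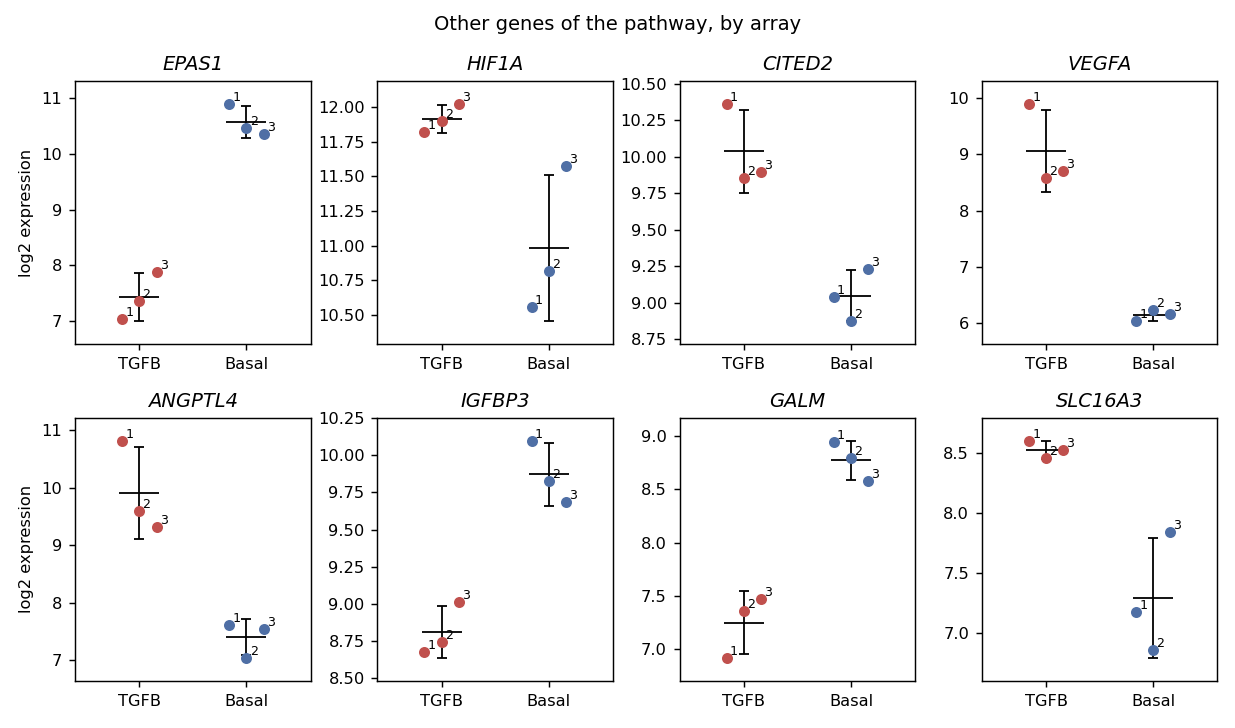
Log2 expression (y axis, scaled per gene) of 8 genes of the further lists in TGFB and Basal arrays. Points are arrays with their replicate number and bars are mean and SD (n = 3 each); EPAS1, IGFBP3 and GALM are lower on every TGFB array, and the other 5 are higher.

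Of 26 measured genes of pyruvate handling and of the isoforms around glycolysis, 1 fell and none rose, with a list median of 0.02. GALM, which interconverts the anomers of hexose sugars before they are phosphorylated, read 6.91, 7.36 and 7.47 on the TGFB arrays and 8.95, 8.79 and 8.58 on the Basal arrays. It fell 2.88-fold (95% interval 2.11 to 3.94, limma adjusted p = 0.030). SLC16A3 (MCT4), the lactate exporter that HIF induces, read 8.61, 8.46 and 8.53 on the TGFB arrays and 7.18, 6.86 and 7.84 on the Basal arrays, a difference of 1.24 (SE 0.25, limma adjusted p = 0.0823). The monocarboxylate carrier SLC16A1 (MCT1) had an estimate of 1.98 (SE 0.48), and the ADP-dependent glucokinase ADPGK one of 0.42 (SE 0.09). Neither passed, with limma adjusted p = 0.108 and 0.0914. In the blocked fit SLC16A3, SLC16A1 and ADPGK all passed, at 1.12, 1.63 and 0.43 (limma adjusted p = 0.0308, 0.0173 and 0.0414). SLC16A3 and SLC16A1 also passed without Basal 3, at 1.51 and 2.52 (limma adjusted p = 0.00638 and 0.00705). That fit called 16.8% of all genes. Other genes of this list not named here had a limma adjusted p under 0.05 in a fit without 1 array.

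None of 19 genes of the pentose phosphate, glycogen, hexosamine and serine branches passed, with 8 at an unadjusted p under 0.05 by limma and a list median of -0.05. Over all genes 17.4% had such a p. GYG1, which primes glycogen, had an estimate of -0.59 (SE 0.12, limma adjusted p = 0.084). That of PGM3, of the hexosamine branch, was 1.53 (SE 0.33, limma adjusted p = 0.0876). The serine synthesis enzymes PHGDH, PSAT1 and PSPH stood at 0.92 (SE 0.35), 1.46 (SE 0.37) and 1.08 (SE 0.30), with all TGFB arrays above all Basal arrays. In the blocked fit PSAT1, PGM3 and GYG1 passed, at 1.77, 1.38 and -0.55 (limma adjusted p = 0.00274, 0.0371 and 0.0395), and PSPH did not (0.0759). PHGDH also passed there as higher and UGP2 as lower (limma adjusted p = 0.00947 and 0.0199). In all, the blocked fit called 3 of the 19 as higher and 2 as lower. Of the genes named from this list PGM3 and GYG1 passed without Basal 3, at 1.89 and -0.68 (limma adjusted p = 0.00615 and 0.0182). That fit called 16.8% of all genes. Further genes of the list had a limma adjusted p under 0.05 in a fit without 1 array. None of 7 gluconeogenic genes passed, and none had an unadjusted p under 0.05 by limma. The mitochondrial PCK2 stood at 0.69 (SE 0.35) and also passed in the blocked fit (0.97, limma adjusted p = 0.00879), while FBP2, G6PC3 and G6PC1 stood at -0.33, -0.19 and -0.11.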

How the data were processed

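The authors deposited log2 expression per probe set. The submitters' processing notes name RMA and affy without versions. RMA sets arrays on a common scale and joins the probes of a set, with no detection call. Of 24128 probe sets 112 controls were kept out. The array annotation gave 1 symbol to 13292 of the other 24016, several to 86 and none to 10638. Names were checked by gene identifier against RefSeq (13263 matched, 0 changed). The probe set with the highest mean stood for each of 9162 genes.

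A linear model with group as its only term was fitted to each gene (lmFit and eBayes of limma 3.58.1, R 4.3.3), with two-sided p-values adjusted by Benjamini-Hochberg over all genes and a threshold of 0.05. Intervals are 95% intervals of the moderated fit. The fit was tested on simulated data with independent noise for each gene. Those data lacked the split of the arrays on the first component, so they cannot show how the fit handles it. Plots used Python 3.11.15 and matplotlib 3.10.9.

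The members and lists were chosen with earlier results of these data known. Named were all measured members and, from each further list, the genes past the threshold, or the 4 with the smallest p where fewer than 4 passed. CLDN5, PECAM1, CDH5, EMCN, ENG, ROBO4, VWF, KDR, COL1A2 and EPB42 were named after their values were seen. The same holds for PHGDH, UGP2, TAGLN and the other smooth muscle markers. Alternatives were another quantile normalization, median centring, limma-trend, robust eBayes, the replicate number as a block, filters on dim probe sets, other gene summaries, a threshold of 0.1 and leaving out each array.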

Additional observations from a re-analysis of the deposited data

How the results depend on the processing

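Limits of the data are the 3 arrays per group, the split of the arrays on the first principal component and the lack of detection calls, and the causes of the changes below were not tested. DDIT4 and SLC2A1 stayed called under quantile normalization, median centring, robust eBayes, both filters on dim probe sets, probe set means and the threshold of 0.1. ANGPTL4 was not called with quantile normalization, robust eBayes or single probe sets (limma adjusted p = 0.0536, 0.0542 and 0.0726), nor IGFBP3 with limma-trend, probe set means or single probe sets (0.0553, 0.0998 and 0.0525). The number of called genes, 158 in the reported fit, was 99 with limma-trend, 93 with every probe set tested by itself and 433 at 0.1. With limma-trend and with single probe sets 1 of the 31 genes was called, DDIT4, and 0 glycolytic ones (SLC2A1 limma adjusted p = 0.0627 and 0.0579). With the replicate block 0 genes were called by limma, 0 of the 31 among them, though 2039 had an unadjusted p under 0.05 and 9 of the 31 did. The labels do not say whether arrays of one number share a culture, and they were not treated as pairs. Deviations of same-numbered arrays correlated at 0.67, -0.509 and 0.703 across genes, and TGFB 1 and TGFB 3 correlated best with the Basal array of their own number while TGFB 2 did so with Basal 3. With the array split as a block, chosen after seeing the data, 878 genes were called, 5 of the 31, 3 glycolytic and 2 hypoxia-responsive. Leaving out 1 array gave 0 to 1538 called genes, 0 to 6 of the 31, 0 to 4 glycolytic and 0 to 2 hypoxia-responsive. Over the fits without 1 array the glycolytic median of 0.07 ran from -0.07 to 0.10, turning its sign without TGFB 1 and without Basal 3, and the hypoxia-responsive median of 0.19 ran from 0.10 to 0.28.

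None of the named genes past the threshold turned its sign under these alternatives. With the array split as a block EGLN2 stood at 0.0175, HK1 at 0.12, PFKFB3 at 0.0183 and PKM at 0.11. Quantile normalization gave BNIP3L -0.0128 and GAPDH -0.0314, and median centring gave GAPDH -0.0025. Leaving out 1 array, ALDOA ran from -0.11 to 0.24, BNIP3L from -0.0196 to 0.0504, G6PC1 from -0.23 to 0.0176, GAPDH from -0.067 to 0.0508 and GPI from -0.0648 to 0.18. HK1 ran from -0.51 to 0.0016, LDHB from -0.0552 to 0.56, NDRG1 from -0.0424 to 0.25, PFKFB3 from -0.36 to 0.12, PFKFB4 from -0.0371 to 0.14, PKM from -0.26 to 0.057 and SLC2A3 from -0.25 to 0.0693.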
